A study of Mus musculus with 30 samples.

Results

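The ligands of the EGF receptor and the receptors they bind were followed across 30 colon libraries. The 10 genes were chosen by gene name from the table of 46078 genes, by a rule that uses no measured value, and they are 7 ligand genes (*Areg*, *Ereg*, *Epgn*, *Hbegf*, *Tgfa*, *Btc* and *Nrg1*) and 3 receptor genes (*Egfr*, *Erbb2* and *Erbb3*). The set was, however, proposed with earlier results of these data known. RNA came from the epithelial layer scraped from the colon of wild-type C57BL/6J mice, which entered the experiment at 5 to 10 weeks of age. Vehicle mice were injected with saline and killed at 9 weeks. AOM/DSS mice received 1 injection of the carcinogen azoxymethane (AOM, 10 mg/kg) and 3 cycles of the colitis-inducing polymer dextran sulfate sodium (DSS, 2.5% in drinking water), and were killed 9 or 15 weeks after the injection. Each of the 3 conditions held 5 females and 5 males, 1 library per mouse. There was no vehicle group of 15 weeks, so in the comparison of 15 weeks with vehicle the treatment and the later time of killing cannot be told apart.

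The ligands of this family are made as membrane proteins and are released by proteases of the ADAM family. Amphiregulin (*Areg*), epiregulin (*Ereg*), epigen (*Epgn*), HB-EGF (*Hbegf*), TGF-alpha (*Tgfa*) and betacellulin (*Btc*) bind EGFR, whereas neuregulin 1 (*Nrg1*) binds ERBB3 and ERBB4. Bound receptors pair with one another, ERBB2 being the preferred partner without a ligand of its own and ERBB3 a partner with little kinase activity, and they drive the Ras-MAPK and PI3K chains. In the intestine the pathway is known for its role in epithelial proliferation and in repair after injury.

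In these scrapes *Areg* was the member that rose most clearly. It was about 2.06-fold higher at 9 weeks of AOM/DSS and 1.83-fold higher at 15 weeks than in vehicle mice. *Btc* was called upward at 9 weeks and *Hbegf* at 15 weeks, and both calls were lost in some alternative fits. Neither *Erbb2* nor *Erbb3* was called in any comparison over all libraries.

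The genes *Epgn*, *Ereg*, *Areg* and *Btc* lie in a row within 376 kb on chromosome 5 of GRCm38. *Epgn* spans chr5:91027464-91035215, *Ereg* chr5:91074622-91093646 and *Areg* chr5:91139599-91148432, all on the plus strand, and *Btc* spans chr5:91357261-91402994 on the minus strand. *Tgfa* lies at chr6:86195251-86275639, *Nrg1* at chr8:31818028-31918203, *Erbb3* at chr10:128567523-128589652, *Egfr* at chr11:16752203-16918158 and *Erbb2* at chr11:98412470-98437716. The 250 bases before the RefSeq start are shown for *Areg* and *Btc*, from chr5:91139349-91139598 on the plus strand and chr5:91402995-91403244 on the minus strand of GRCm38.p6. This is the pair of ligand genes of the row that passed all thresholds at 9 weeks. *Epgn* also had an adjusted p under 0.05 there (edgeR, 0.0219) but was kept out by its low FPKM. Capitals mark matches to the motifs searched, which were the CRE (TGACGTCA), the AP-1 site (TGANTCA) and the TATA box (TATAAA), on both strands.
Areg: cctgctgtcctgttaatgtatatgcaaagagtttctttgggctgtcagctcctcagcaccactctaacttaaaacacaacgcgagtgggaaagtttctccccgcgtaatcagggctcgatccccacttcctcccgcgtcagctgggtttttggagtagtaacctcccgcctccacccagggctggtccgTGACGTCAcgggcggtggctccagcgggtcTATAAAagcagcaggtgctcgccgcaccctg
Btc: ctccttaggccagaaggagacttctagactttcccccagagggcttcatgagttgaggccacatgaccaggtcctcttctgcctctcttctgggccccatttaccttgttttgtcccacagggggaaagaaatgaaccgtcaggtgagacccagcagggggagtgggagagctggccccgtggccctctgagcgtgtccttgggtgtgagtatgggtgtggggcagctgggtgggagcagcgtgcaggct
The *Areg* stretch holds a CRE 61 to 54 bases before the start and a TATAAA 31 to 26 bases before it. Of the same 250 bases of all 32851 promoters in the table, 1.55% held a CRE, 12.4% a TATAAA and 6.75% an AP-1 site. The *Btc* stretch holds none of the 3 motifs. RefSeq promoters were at hand for 6 of the 10 genes, and among *Epgn*, *Tgfa*, *Egfr* and *Erbb2* the only match was a TATAAA in *Epgn*.

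Libraries held 9265804 to 30806392 counts on genes, and 29 of the 30 held at least 14619526. Levels are given as CPM, counts per 1000000 counts after scaling by TMM, and differences as log2 fold changes ± SE with adjusted p-values from edgeR's quasi-likelihood test over 16261 genes. A gene was called when the adjusted p was under 0.05, the log2 fold change exceeded 0.4 in size and the mean FPKM was at least 1 on at least 1 side of the comparison. All 10 members passed the filter on low counts. The scrapes were rich in epithelial markers, with a mean log2 CPM of 9.02 to 10.3 over the 10 genes of that list.

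Other cell types moved with the conditions. The marker score of a list, the mean log2 CPM of its tested genes, had for neutrophils (7 of 8 genes tested) a range of -2.33 to 0.105 in vehicle, -2.01 to 3.91 at 9 weeks and -1.66 to 1.79 at 15 weeks, and the defining markers *S100a8* and *S100a9* were at 0 in 8 and 6 libraries. In the same order the ranges were 0.860 to 6.02, 1.74 to 4.45 and 0.353 to 3.45 for mesenchyme (14 of 14), -1.52 to 8.74, 0.286 to 4.26 and -1.79 to 2.72 for smooth muscle (8 of 8), and -0.660 to 6.13, -0.950 to 3.43 and -1.17 to 2.80 for the posterior Hox genes, which mark the distal colon (6 of 6). For mast cells (5 of 7) they were -0.898 to -0.123, 0.299 to 2.51 and -0.838 to 2.78, so that no library of 9 weeks overlapped vehicle. Of the 5 tested genes 2, the proteases *Mcpt1* and *Mcpt2*, were called upward both at 9 weeks (list median 4.05) and at 15 weeks (3.58). The other tested genes did not all rise. *Kit*, the most abundant of the list, had medians of 69.5 CPM in vehicle, 52.5 at 9 weeks and 55.0 at 15 weeks. By their medians *Cpa3* (0, 0.428 and 0.0948) and *Tpsb2* (0.289, 0.382 and 0.54) were higher than in vehicle, and neither was called. *Fcer1a* and *Ms4a2* were at 0 in 18 and 17 libraries. At 9 weeks 2 of 7 macrophage, 2 of 8 B and plasma cell and 1 of 8 T cell genes were also called upward, and at 15 weeks 0, 0 and 1. Against vehicle 7 of 8 smooth muscle, 5 of 14 mesenchyme and 1 of 7 endothelium genes were called downward at 15 weeks. Their list medians were -2.97, -1.29 and -1.64, and at 9 weeks 0 genes of these lists were called. These falls were not shared alike by the sexes. From vehicle to 15 weeks the median score in males went from 2.73 to 0.966 for smooth muscle, 3.45 to 2.36 for mesenchyme and 2.67 to 0.677 for endothelium. In females it went from -0.467 to -0.155, 1.23 to 1.66 and 0.0240 to -0.191. The part of the immune cells in the results on the members was not tested. That of mesenchyme and smooth muscle was not tested beyond fits with their scores as covariates. The vehicle male 1 library stood apart, with the highest smooth muscle score (8.74) and a squamous epithelium score of 5.12, where the other 29 libraries reached at most 1.55. Of the 10 squamous genes 4 were tested, and *Krt5* and *Trp63* were at 0 in 27 libraries. The female 9-week library 5 had a neutrophil score of -2.01, within the vehicle range, against 0.826 to 3.91 in the other 9-week libraries. In bulk tissue fewer cells of a type and less RNA per cell cannot be told apart.

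Within a library, levels of different genes were compared per length, as TPM. The median TPM over the 30 libraries was 42.7 for *Erbb3* and 27.5 for *Erbb2*, followed by 11.2 for *Areg*, 6.38 for *Hbegf*, 5.86 for *Tgfa* and 3.89 for *Egfr*. The order ended with *Btc* at 1.01, *Ereg* at 0.540, *Nrg1* at 0.101 and *Epgn*, which StringTie listed at 0 at the median.
*Erbb3* lay above *Erbb2*, and *Erbb2* above *Areg*, in 30 of 30 libraries, and *Areg* lay above *Hbegf* in 27. *Hbegf* and *Tgfa* changed places, with *Hbegf* the higher in 13 of 30, and so did *Nrg1* and *Epgn*, with *Nrg1* the higher in 16. *Egfr* was the lowest of the 3 member receptors at the median by this scale, and *Erbb4*, the fourth receptor of the family, had 0 counts in all 30 libraries, below the floor of 3 counts. The median TPM ratio of *Egfr* to *Erbb2* was 0.107 in vehicle (0.0680 to 0.200), 0.183 at 9 weeks (0.102 to 0.256) and 0.125 at 15 weeks (0.0926 to 0.190). The ratio of *Erbb3* to *Erbb2* had medians of 1.49, 1.58 and 1.48.

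*Areg* held the largest median share of the summed TPM of the 6 EGFR ligands in each condition. Its share had a median of 37.2% in vehicle (25.2% to 49.9%), 52.8% at 9 weeks (29.1% to 58.5%) and 48.5% at 15 weeks (27.8% to 61.4%). *Tgfa* held 32.1%, 19.6% and 21.0%, *Hbegf* 24.5%, 18.8% and 24.2%, and *Btc*, *Ereg* and *Epgn* held at most 10.2%, 5.51% and 1.19% in any library. The ranges of the conditions overlapped for all 6 ligands, and these shares are a description without a test.

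**Figure D1:**
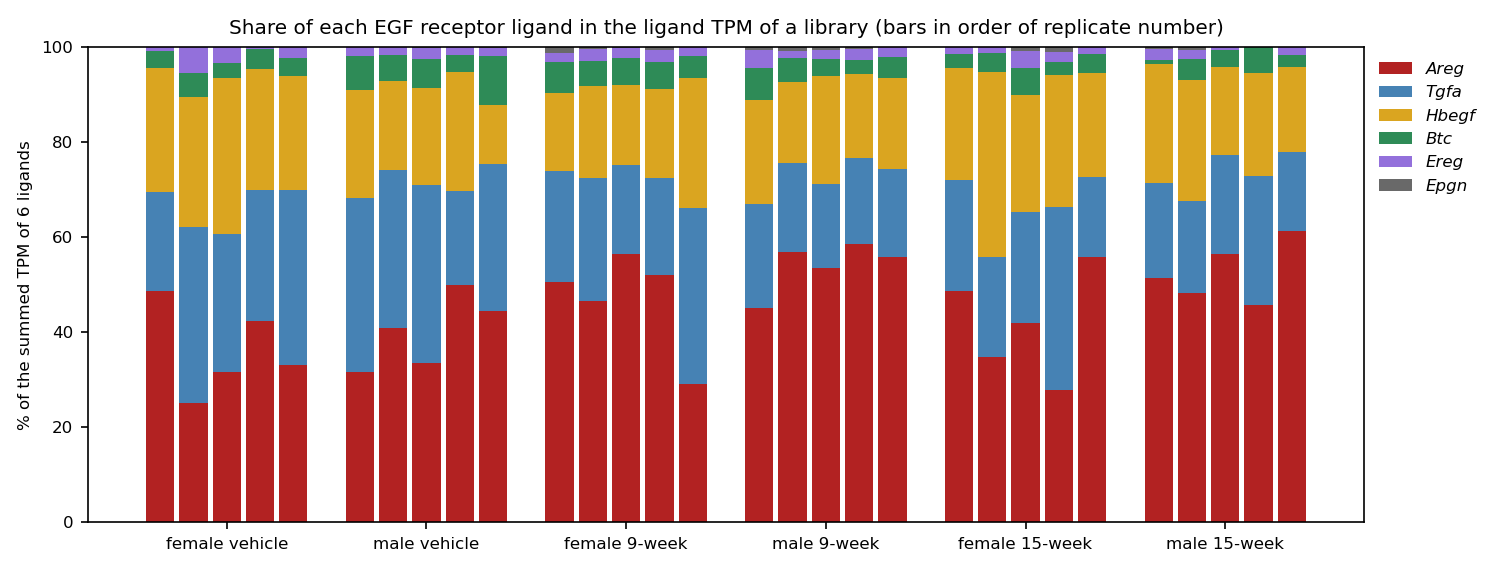
Share of each of the 6 EGFR ligands in their summed TPM (y axis, %), 1 bar per library, grouped by sex and condition with 5 bars per group. The *Areg* segment had a median of 37.2% in vehicle, 52.8% at 9 weeks and 48.5% at 15 weeks, and the ranges overlapped.

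The first comparison asked how 9 weeks of AOM/DSS, the stage of colitis, differed from vehicle with both sexes pooled. Of the 10 members, 2 were called, both upward, where 8.29% of all tested genes were called and 5.51% were called upward. The median log2 fold change of the members was 0.52 and that of all tested genes -0.02. In total 8 members had a log2 fold change above 0. *Epgn* and *Egfr* also had an adjusted p under 0.05 but were kept out, *Epgn* by its low FPKM and *Egfr* by the fold change threshold.

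*Areg*, which encodes amphiregulin, had CPM of 24.2, 10.9, 18.3, 19.1 and 13.9 in vehicle females and 14.2, 13.7, 13.1, 28.3 and 13.4 in vehicle males. At 9 weeks it had 29.7, 26.1, 44.5, 36.9 and 14.5 in females and 27.7, 51.4, 37.9, 45.1 and 37.5 in males. At 15 weeks it had 31.7, 18.0, 24.4, 15.5 and 42.0 in females and 44.5, 33.6, 35.3, 22.3 and 47.1 in males. The conditions overlapped, but 7 of the 10 libraries of 9 weeks lay above every vehicle library and all 10 lay above the vehicle median. The low value of 9 weeks was that of the female library 5, which also had the lowest neutrophil score of that condition. The log2 fold change at 9 weeks was 1.04 ± 0.21 (edgeR adjusted p = 0.000797). It was called in all 20 fits that left out 1 library, with 0.95 to 1.18.

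*Btc* encodes betacellulin, a ligand of EGFR and ERBB4. Its CPM were 3.98, 4.99, 3.96, 4.06 and 3.73 in vehicle females and 7.26, 4.07, 5.46, 4.77 and 7.09 in vehicle males. At 9 weeks they were 7.87, 6.67, 10.6, 8.55 and 5.27 in females and 9.14, 10.5, 5.70, 5.31 and 6.67 in males. At 15 weeks they were 4.17, 4.31, 7.74, 3.39 and 6.56 in females and 1.66, 7.06, 5.19, 5.92 and 4.21 in males. The 5 females of 9 weeks lay above the 5 vehicle females without overlap, where 4.18% of all tested genes did not overlap in either direction. In males the groups overlapped. The pooled log2 fold change at 9 weeks was 0.64 ± 0.20 (edgeR adjusted p = 0.0267). The call was lost in 4 of 20 fits that left out 1 library (vehicle male 2, 9-week female 3, 9-week male 1 or 9-week male 2, highest adjusted p = 0.0631) and in the fit with the mesenchyme score added as a covariate (adjusted p = 0.0508).

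*Epgn*, encoding epigen, was near the limit of detection. Vehicle libraries held 0, 0, 7, 1 and 1 counts in females and 0, 1, 2, 5 and 3 in males. Libraries of 9 weeks held 14, 5, 10, 14 and 0 counts in females and 11, 22, 14, 16 and 3 in males. Libraries of 15 weeks held 2, 0, 13, 19 and 6 counts in females and 12, 12, 4, 0 and 2 in males. A floor of 3 counts corresponded to 0.0921 to 0.320 CPM. In CPM, 7 of the 10 libraries of 9 weeks lay above every vehicle library. The log2 fold change at 9 weeks was 2.29 ± 0.69 (edgeR adjusted p = 0.0219), and with no library of this gene above 22 counts its mean FPKM stayed under 1, so it was not called.

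*Ereg*, encoding epiregulin, varied widely among vehicle females, with CPM of 1.20, 7.66, 6.14, 0.619 and 3.20, and lay at 2.90, 1.88, 2.84, 3.04 and 1.64 in vehicle males. At 9 weeks it had 3.55, 4.39, 5.06, 5.70 and 2.85 in females and 7.90, 4.32, 4.24, 5.80 and 4.72 in males. At 15 weeks it had 2.97, 2.36, 6.78, 3.92 and 3.72 in females and 6.17, 3.88, 1.33, 0.620 and 4.11 in males. In males all 5 libraries of 9 weeks lay above all 5 vehicle libraries, which held for 10.3% of the tested genes, non-overlap in either direction. The pooled log2 fold change was 0.66 ± 0.35 (edgeR adjusted p = 0.218). Part of the *Ereg* locus overlaps RP23-42K10.4, a gene on the opposite strand with at most 16 counts in any library.

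*Hbegf* and *Tgfa*, which encode HB-EGF and TGF-alpha, were among the more abundant ligands. *Tgfa* was the steadiest ligand, with medians of 41.5 CPM in vehicle (28.2 to 53.5), 46.2 at 9 weeks (39.7 to 56.4) and 42.9 at 15 weeks (35.5 to 68.5), and a log2 fold change of 0.14 ± 0.12 at 9 weeks (edgeR adjusted p = 0.470). That of *Hbegf* at 9 weeks was 0.33 ± 0.17 with the sexes pooled (edgeR adjusted p = 0.203), and without the vehicle male 4 it was called (0.46, adjusted p = 0.0400).

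*Nrg1* was the scarce ligand of the other receptor branch. Its counts in vehicle were 14, 6, 3, 11 and 2 in females and 67, 15, 15, 14 and 17 in males. At 9 weeks they were 34, 38, 14, 49 and 6 in females and 81, 39, 31, 15 and 24 in males. At 15 weeks they were 1, 5, 11, 6 and 11 in females and 9, 3, 0, 0 and 20 in males. The vehicle library with 67 counts was the male library 1 that stood apart by its smooth muscle and squamous markers. The log2 fold change at 9 weeks was 1.26 ± 0.50 (edgeR adjusted p = 0.0847).

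Of the receptors, *Egfr* was higher at 9 weeks by a narrow margin. Its CPM were 43.7, 48.8, 56.1, 48.0 and 64.1 in vehicle females and 42.6, 38.8, 43.1, 47.0 and 52.7 in vehicle males. At 9 weeks they were 70.1, 55.3, 67.6, 71.3 and 48.9 in females and 70.2, 70.2, 64.2, 61.2 and 55.0 in males. At 15 weeks they were 44.1, 33.5, 46.9, 50.9 and 61.1 in females and 52.7, 61.7, 49.6, 55.7 and 41.1 in males. All 10 libraries of 9 weeks lay above the vehicle median and 6 lay above every vehicle library. The log2 fold change was 0.39 ± 0.10 (edgeR adjusted p = 0.00595), just inside the threshold of 0.4, so *Egfr* was not called with the sexes pooled, although it was in 7 of the 20 fits that left out 1 library (0.40 to 0.43). *Erbb2* and *Erbb3* had medians of 245 and 462 CPM in vehicle and 214 and 397 at 9 weeks, and log2 fold changes of -0.30 ± 0.15 and -0.27 ± 0.15 (edgeR adjusted p = 0.174 and 0.261). Without the 9-week female 5 *Erbb2* was called downward (-0.41, adjusted p = 0.0402). Part of the *Erbb2* locus overlaps *Mien1* on the opposite strand, which had a median of 1632 counts against 5386 for *Erbb2*.

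**Figure D2:**
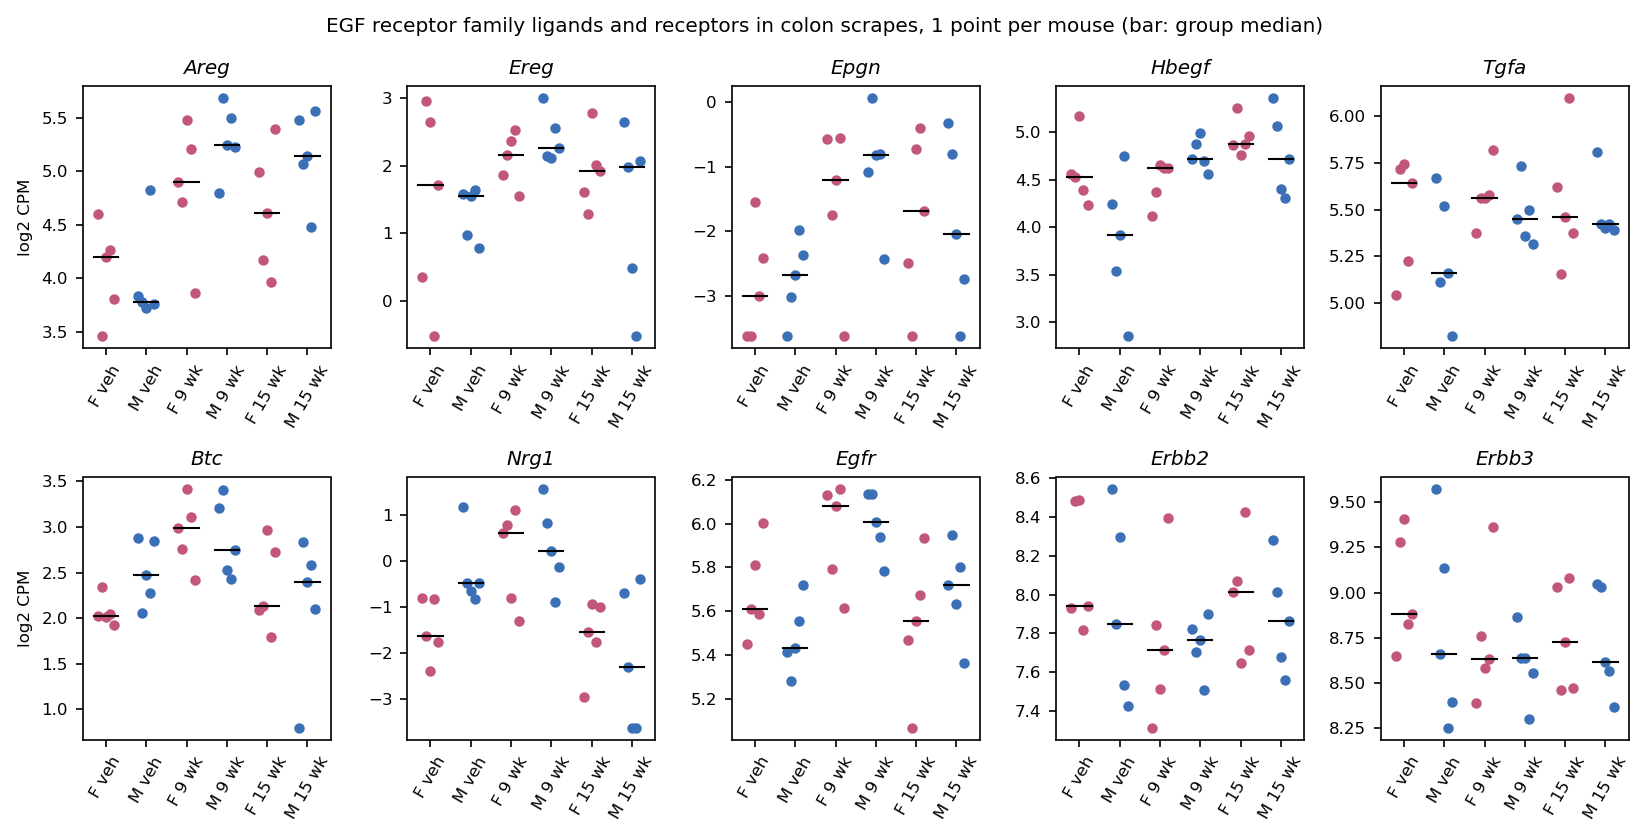
Log2 CPM (y axis, prior count of 2) of the 10 members in the 30 libraries, 1 point per mouse, for females (F, pink) and males (M, blue) in vehicle (veh), 9 weeks and 15 weeks, with bars at the group medians. *Areg* was higher in most AOM/DSS libraries than in vehicle, *Btc* and *Egfr* were highest at 9 weeks, and *Erbb2* and *Erbb3* overlapped throughout.

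The second comparison set 15 weeks of AOM/DSS, the stage of tumour development, against vehicle. Per the study, the sequenced tissue was colon outside the tumours. Again 2 members were called, both upward, where 7.35% of all tested genes were called and 3.46% were called upward. The median log2 fold change of the members was 0.09 and that of all tested genes -0.03. The comparison shares its vehicle libraries with that at 9 weeks.

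*Areg* was called at 15 weeks as well, with a log2 fold change of 0.87 ± 0.21 (edgeR adjusted p = 0.00721). Of the 10 libraries of 15 weeks 6 lay above every vehicle library and all 10 above the vehicle median. The call held in all 20 fits that left out 1 library (0.76 to 1.01).

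*Hbegf* was the other member called. Its CPM were 23.6, 23.0, 36.1, 21.0 and 18.8 in vehicle females and 18.9, 11.5, 15.0, 26.8 and 7.13 in vehicle males. At 9 weeks they were 17.3, 20.7, 25.1, 24.7 and 24.6 in females and 26.2, 29.2, 31.7, 25.9 and 23.5 in males. At 15 weeks they were 29.0, 38.2, 27.0, 29.3 and 31.0 in females and 41.1, 33.5, 21.1, 19.7 and 26.3 in males. The conditions overlapped, with 9 of 10 libraries of 15 weeks above the vehicle median and 2 above every vehicle library. The log2 fold change was 0.58 ± 0.17 (edgeR adjusted p = 0.0210). It was called in all 20 fits that left out 1 library, but not with the posterior Hox score as a covariate (0.38, adjusted p = 0.304), and the Hox genes themselves had a median log2 fold change of -4.19 with 3 of 6 called downward. Of the Hox genes, *Hoxd12*, *Hoxd11* and *Hoxd10* were at 0 in 17, 6 and 5 libraries. Median CPM in vehicle and at 15 weeks were 204 and 84.0 for *Hoxb13*, 53.7 and 44.4 for *Hoxa13*, and 13.0 and 0.0759 for *Hoxd13*. The part of the Hox genes in the *Hbegf* result was not tested beyond that fit. The fit of the compared groups alone also lost the call, with 0.60 and an adjusted p of 0.0517.

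*Btc* and *Egfr* were at the vehicle level by their medians at 15 weeks, with log2 fold changes of 0.04 ± 0.20 and 0.04 ± 0.10 (edgeR adjusted p = 0.906 and 0.807). *Epgn* had 1.82 ± 0.70 (adjusted p = 0.0687) and *Nrg1* -0.93 ± 0.53 (adjusted p = 0.216), neither called. *Erbb2* and *Erbb3* had -0.13 ± 0.15 and -0.20 ± 0.15, *Tgfa* 0.15 ± 0.12 and *Ereg* 0.23 ± 0.35, with adjusted p-values of 0.374 to 0.679.

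The third comparison set 15 weeks directly against 9 weeks. No member was called by edgeR, where 2.32% of all tested genes were called, 0.418% upward and 1.91% downward. At an unadjusted p under 0.05 there were 3 members and 23.7% of the tested genes, and DESeq2 called 1 member, *Btc*. *Nrg1* had a log2 fold change of -2.19 ± 0.52 (edgeR adjusted p = 0.0213) and was kept out by its FPKM, which stayed under 1. *Egfr* had -0.35 ± 0.10 (adjusted p = 0.0400), inside the fold change threshold, and *Btc* -0.60 ± 0.20 (adjusted p = 0.0734). None of the 10 libraries of 15 weeks lay above the 9-week median for *Nrg1* or *Egfr*, and 1 did for *Btc*. *Btc* was called without the 9-week female 5 (-0.64, adjusted p = 0.0324) or the 15-week male 2 (-0.69, adjusted p = 0.0486), and *Egfr* without the 15-week female 5 (-0.41, adjusted p = 0.0198). *Hbegf* had 0.26 ± 0.17 (adjusted p = 0.355). In females all 5 libraries of 15 weeks lay above all 5 of 9 weeks for *Hbegf*, where 1.27% of the tested genes did not overlap in either direction. Of the mesenchyme markers, 3 of 14 were called downward in the same comparison, with a median of -1.54. With the mesenchyme score as a covariate *Nrg1* had -0.96 (adjusted p = 0.457), *Egfr* -0.34 (adjusted p = 0.421) and *Btc* -0.47 (adjusted p = 0.507), and in that fit 0 of all 16261 genes were called, against 378 without it. *Areg* had -0.17 ± 0.20 (adjusted p = 0.636) and, with the covariate, 0.03 (adjusted p = 0.970).

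**Figure D3:**
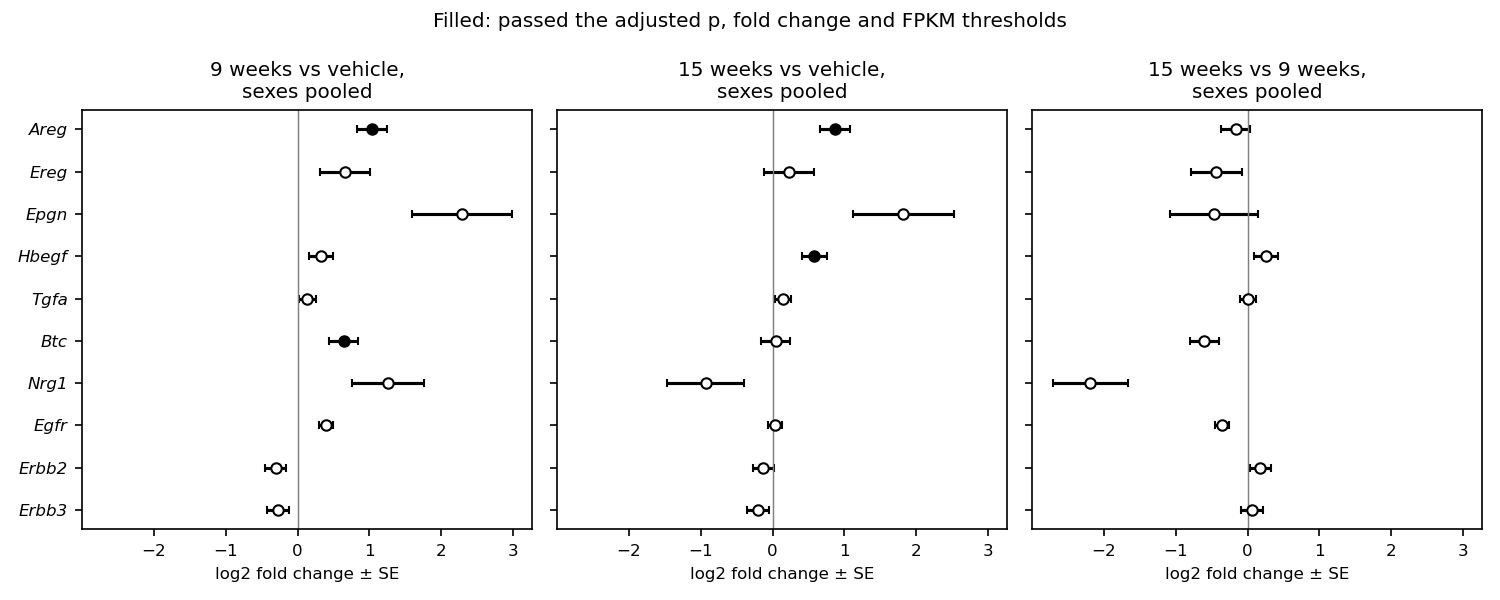
Log2 fold changes (x axis) ± SE of the 10 members in the 3 comparisons with the sexes pooled, 10 libraries per condition. Filled points passed all thresholds, which were *Areg* and *Btc* at 9 weeks and *Areg* and *Hbegf* at 15 weeks, and no point is filled for 15 weeks against 9 weeks.

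The study compared males and females throughout, and the members were therefore tested within each sex. At 9 weeks 3 members were called in males, all upward, where 7.31% of the tested genes were called and 4.42% upward. They were *Areg* (1.27 ± 0.29, edgeR adjusted p = 0.00657), *Hbegf* (0.78 ± 0.24, adjusted p = 0.0371) and *Egfr* (0.52 ± 0.14, adjusted p = 0.0174). For *Egfr* all 5 males of 9 weeks lay above all 5 vehicle males, where 10.3% of the tested genes did not overlap in either direction. The call of *Egfr* held in all 10 fits that left out 1 library. That of *Areg* did as well (1.16 to 1.55, the highest without the vehicle male 4), while *Hbegf* was called in only 3 of 10, and lost its call without vehicle male 2, 3 or 5 or without 9-week male 1, 2, 3 or 4 (0.60 to 0.80, highest adjusted p = 0.0992). It also lost it with the posterior Hox score as a covariate (0.67, adjusted p = 0.0624) and in the fit of the compared groups alone (0.80, adjusted p = 0.0900).

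In females at 9 weeks no member was called by edgeR, where 2.90% of the tested genes were called, and DESeq2 called 1, *Btc*. *Areg* had 0.81 ± 0.29 (edgeR adjusted p = 0.126), *Btc* 0.91 ± 0.29 (adjusted p = 0.0694), *Egfr* 0.27 ± 0.14 (adjusted p = 0.331) and *Hbegf* -0.13 ± 0.24 (adjusted p = 0.851), and 4 members (*Areg*, *Btc*, *Epgn* and *Nrg1*) had an unadjusted p under 0.05, as did 17.2% of the tested genes. Without the vehicle male 1 and the 9-week female 5, the pair of libraries that stood apart, *Areg* (0.98, adjusted p = 0.0264) and *Btc* (1.02, adjusted p = 0.0254) were called in females, and leaving out the 9-week female 5 alone gave 0.97 and 1.01.

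At 15 weeks *Areg* (1.14 ± 0.29, edgeR adjusted p = 0.0120) and *Hbegf* (0.84 ± 0.24, adjusted p = 0.0220) were called in males, where 8.92% of the tested genes were called. In the fit of the compared groups alone neither was called, with folds about as large (1.16 and 0.85, adjusted p = 0.0536 and 0.145), and over all genes 181 of 14964 were called there, against 1451 of 16261. *Hbegf* had 0.60 with the posterior Hox covariate (adjusted p = 0.194) and 0.83 with the mesenchyme one (adjusted p = 0.0714). Without the vehicle male 5 or the 15-week male 1 *Hbegf* was not called (0.65 and 0.68). In females none was called by edgeR or DESeq2, where 0.0984% of the tested genes were called, and *Areg* had 0.60 ± 0.29 (adjusted p = 0.456) and was the 1 member with an unadjusted p under 0.05, which 10.9% of the tested genes had.

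The difference between the male and the female response was tested for each member and none passed, with 0% of all tested genes called at either time by edgeR and no member by DESeq2. At 9 weeks the male response exceeded the female one by 0.91 ± 0.34 on the log2 scale for *Hbegf* (edgeR adjusted p = 0.624), 0.46 ± 0.41 for *Areg* (adjusted p = 0.831) and 0.25 ± 0.20 for *Egfr* (adjusted p = 0.792). For *Btc* the difference was -0.53 ± 0.40 (adjusted p = 0.784). As a fold, the male response of the scarce *Nrg1* was 0.408 of the female one at 9 weeks and 0.348 at 15 weeks. That of *Ereg* was 1.92 of the female one at 9 weeks. At an unadjusted p under 0.05 this left 1 member, *Hbegf*, at 9 weeks and 0 at 15 weeks, against 7.41% and 7.66% of the tested genes. Males and females of the same condition did not differ by the test for any member either, where 0.178% of the tested genes were called in vehicle, 0.0492% at 9 weeks and 0.184% at 15 weeks. The largest difference among *Areg*, *Hbegf*, *Btc* and *Egfr* was that of *Hbegf* in vehicle, -0.63 ± 0.24 in males against females (adjusted p = 0.156), and without the vehicle male 4 it was called (-0.90, adjusted p = 0.0331). Among all 10 members the fold of *Nrg1* in vehicle was larger, 2.84 in males against females, with 4 of 5 males above every female. It rested on 14 to 67 counts in males and 2 to 14 in females, and no member had an adjusted p under 0.05. The mesenchyme score differed too, with medians of 3.45 (2.83 to 6.02) in vehicle males and 1.23 (0.860 to 3.64) in vehicle females. At 9 weeks its medians were 3.74 in males and 3.70 in females. The part of mesenchyme in the folds of *Nrg1* was not tested beyond the covariate fits. A call in males and none in females is by itself not a difference between them. The tested difference of the responses passed for no member.

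**Figure D4:**
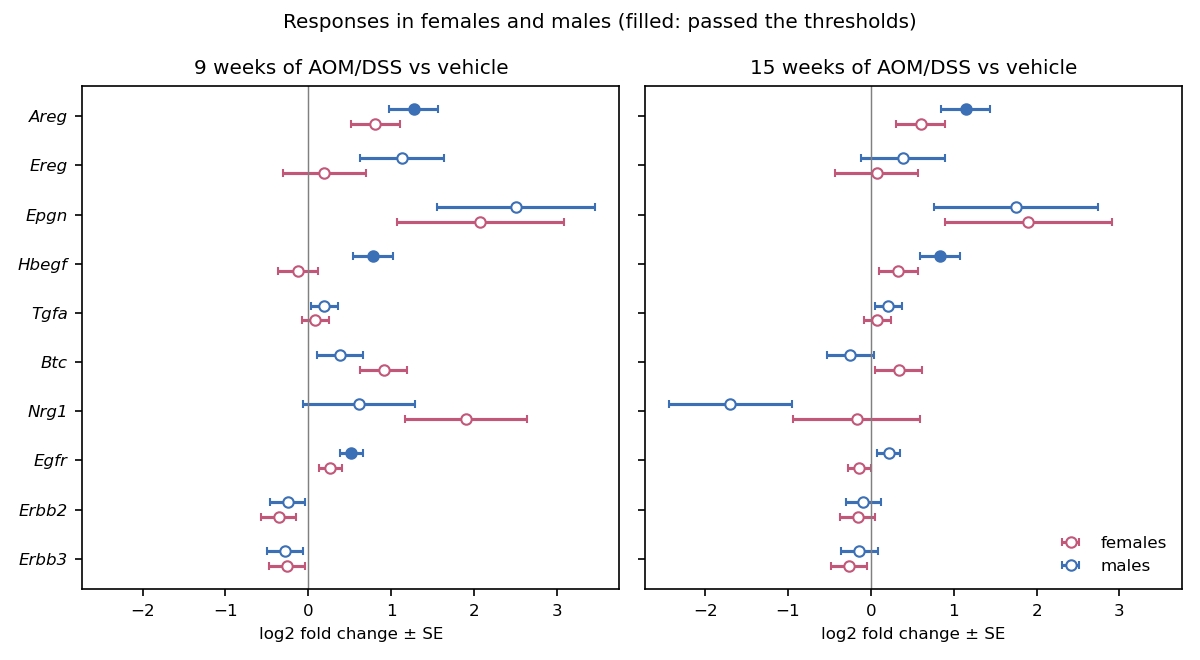
Log2 fold changes (x axis) ± SE of the 10 members against vehicle of the same sex at 9 weeks and 15 weeks, for females (pink) and males (blue), 5 libraries per group. Filled points passed all thresholds, and they are all male, with *Areg*, *Hbegf* and *Egfr* at 9 weeks and *Areg* and *Hbegf* at 15 weeks, while the male minus female difference passed for no member.

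The genes around the ligands and receptors were read from 5 lists with 62 genes, of which 59 were tested. At 9 weeks 8 were called upward and 2 downward, with a median log2 fold change of 0.00 over the 59. At 15 weeks 4 were called upward and 1 downward, and between 9 and 15 weeks none upward and 2 downward. The shares of called genes over all tested genes are those given above.

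Among the ligands and receptor not in the set, *Egf*, the name-giving ligand, was called downward at both times. Its CPM had a median of 8.25 in vehicle (4.67 to 11.1), 4.71 at 9 weeks (3.19 to 7.42) and 4.63 at 15 weeks (1.68 to 9.25). The log2 fold changes were -0.68 ± 0.18 at 9 weeks (edgeR adjusted p = 0.0115) and -0.79 ± 0.19 at 15 weeks (adjusted p = 0.00654). *Egf* and *Nrg4* were the 2 of 5 genes of this list that passed the filter.

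Of the proteases that shed the ligands and their regulators, 2 of 9 were called upward at 9 weeks and none at 15 weeks. *Adam10*, a sheddase of *Btc* among other ligands, had a median of 120 CPM in vehicle (93.7 to 138) and 163.4 at 9 weeks (106 to 188), with a log2 fold change of 0.42 ± 0.10 (edgeR adjusted p = 0.00421). *Adam8*, also expressed by neutrophils, went from 1.42 CPM (0.320 to 1.99) to 5.78 (1.34 to 13.7), with 2.16 ± 0.34 (adjusted p = 6.80e-05), and fell again between 9 and 15 weeks by 1.50 ± 0.34 (adjusted p = 0.0171). *Adam17*, which encodes the main sheddase of *Areg* and *Tgfa*, had 0.11 ± 0.09 at 9 weeks (adjusted p = 0.465). Some neutrophil markers rose beside *Adam8*, with 4 of the 7 tested called upward at 9 weeks and 4 called downward from 9 to 15 weeks. *Ly6g*, the most abundant of that list, had medians of 98.6 CPM in vehicle, 104 at 9 weeks and 50.3 at 15 weeks. The part of neutrophils in the change of *Adam8* was not tested.

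Of the 20 adaptors and members of the Ras-MAPK and PI3K chain, 1 was called at 9 weeks and none at 15 weeks. This was *Gab1*, an adaptor that carries the signal to PI3K, with 36.0 CPM in vehicle (24.3 to 53.8) and 25.8 at 9 weeks (22.1 to 32.7), a log2 fold change of -0.45 ± 0.10 (edgeR adjusted p = 0.00355).

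Of the 16 inhibitors and feedback regulators, 2 were called upward at 9 weeks and 1 at 15 weeks. *Dusp6*, a phosphatase of ERK, had 37.5 CPM in vehicle (24.3 to 56.4), 63.4 at 9 weeks (25.2 to 77.3) and 47.9 at 15 weeks (37.1 to 87.3). Its log2 fold changes were 0.64 ± 0.17 (edgeR adjusted p = 0.0115) and 0.55 ± 0.17 (adjusted p = 0.0303). *Dusp4*, a nuclear phosphatase of the same family, was called at 9 weeks with 0.54 ± 0.19 (adjusted p = 0.0449).

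Of the 12 output genes of the Ras-MAPK chain, 4 were called upward at 9 weeks and 3 at 15 weeks, with medians over the list of 0.36 and 0.45. *Plaur*, the urokinase receptor, had 4.90 CPM in vehicle (2.28 to 8.23), 19.1 at 9 weeks (8.55 to 41.7) and 10.5 at 15 weeks (5.58 to 18.6). All libraries of 9 weeks lay above all vehicle libraries for *Plaur*, where 1.09% of the tested genes did not overlap in either direction. Its log2 fold changes were 1.92 ± 0.25 (edgeR adjusted p = 5.47e-06) and 1.05 ± 0.25 (adjusted p = 0.00757), and from 9 to 15 weeks it fell by 0.87 ± 0.25 (adjusted p = 0.0421). *Ier3*, an immediate early gene, had 1.21 ± 0.23 (adjusted p = 0.000574) and 0.73 ± 0.23 (adjusted p = 0.0323), and *Phlda1* had 0.84 ± 0.21 (adjusted p = 0.00603) and 0.83 ± 0.21 (adjusted p = 0.0111). *Ccnd1*, encoding cyclin D1, was the last of the 4 at 9 weeks.

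**Figure D5:**
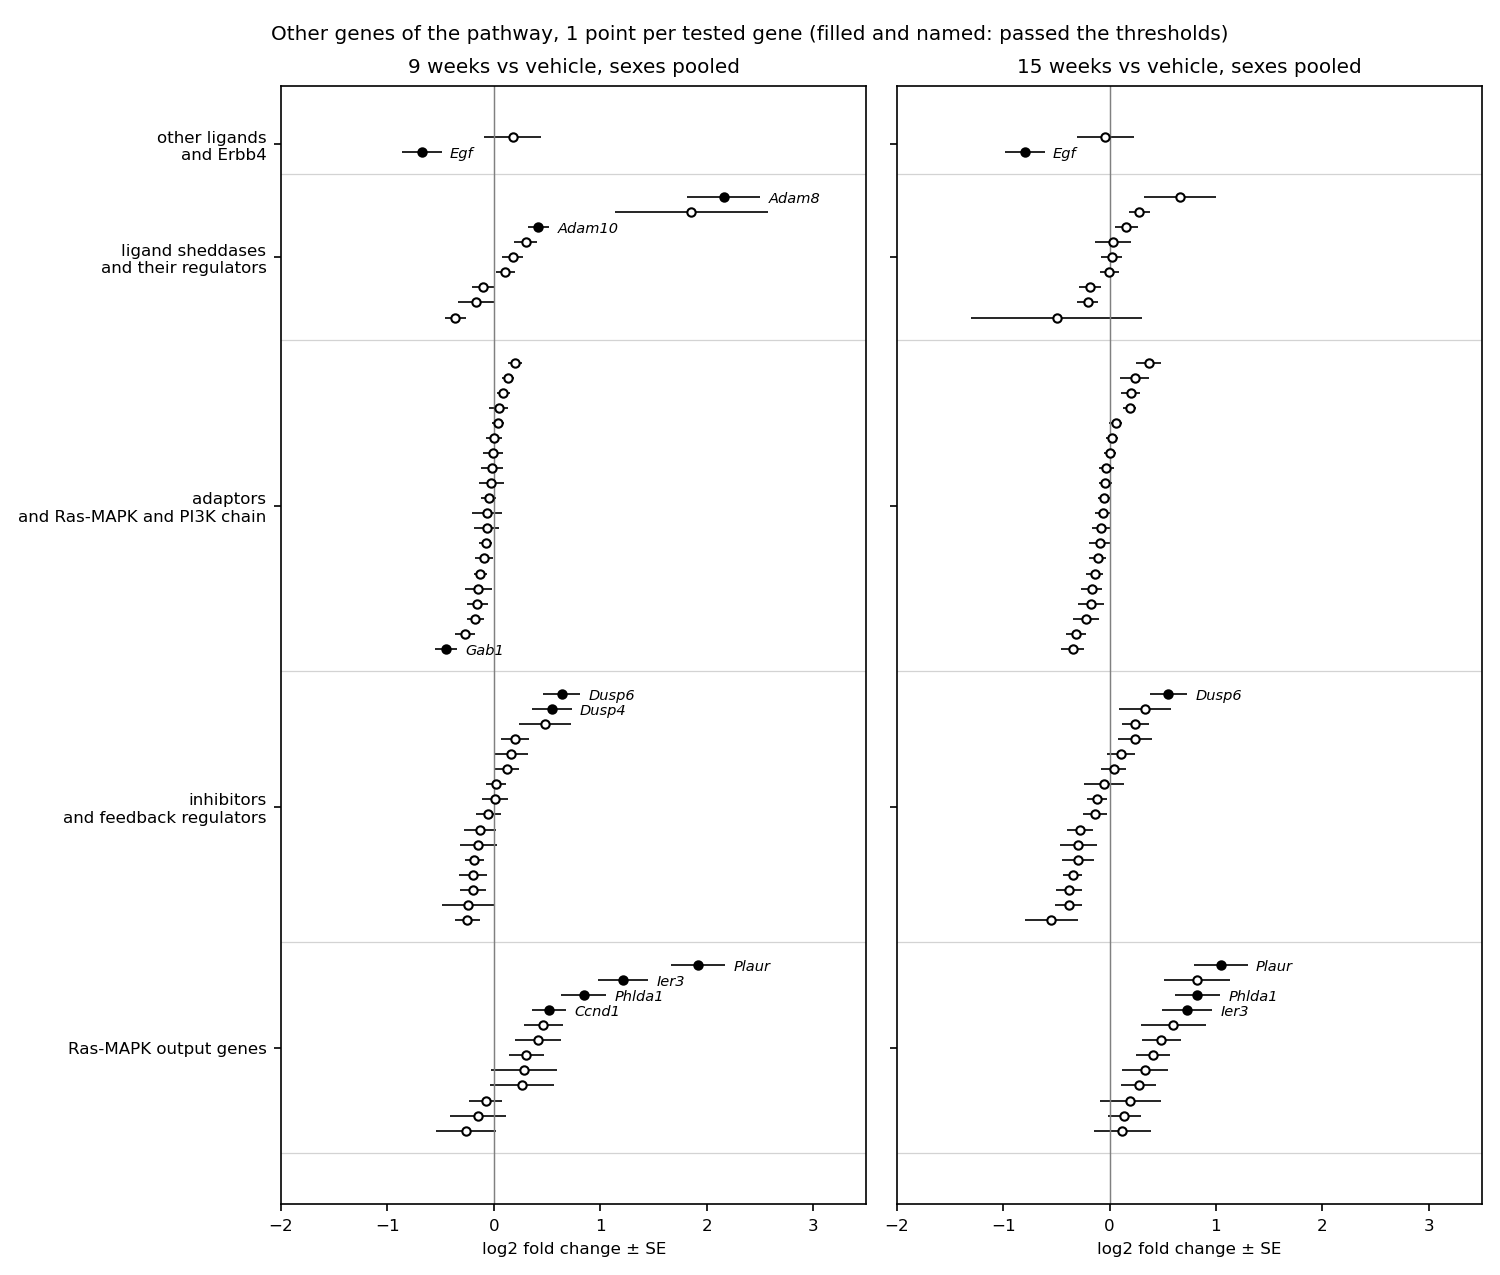
Log2 fold changes (x axis) ± SE of the 59 tested genes of 5 pathway lists at 9 weeks (left) and 15 weeks (right) against vehicle, 1 row per gene sorted within its list. Filled and named points passed all thresholds, 8 upward and 2 downward at 9 weeks and 4 upward and 1 downward at 15 weeks.

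For each member the 3 genes with the most similar pattern were taken by Spearman's rho of log2 CPM over the 30 libraries, which share the conditions and the mix of cells. For *Areg* they were *Prr5l* (0.85), *Evx1* (0.85) and *Igsf23* (0.83), and for *Hbegf* *Metrnl* (0.81), *Mapkapk2* (0.81) and *Ube2z* (0.79). *Dsc2*, encoding a desmosomal cadherin, was near both *Ereg* (0.71) and *Epgn* (0.81), beside *Pim1* and *Tgm2* for the first and *Ptp4a1* and *Rock2* for the second. *Btc* was nearest to *Gbp9* (0.81), *Cav2* and *Plek*, and *Tgfa* to *Lipa* (0.83), *Daam1* and *Erbb2ip*, whose product binds ERBB2. The highest rho among these 30 pairs was that of *Nrg1* with *Bgn* (0.94), *Sod3* (0.94) and *Sparc* (0.93), the last of which is 1 of the mesenchyme markers. *Egfr* was nearest to *Adam17* (0.84), *Necap1* (0.83) and *Sdcbp* (0.82), *Erbb2* to *Ctdsp1* (0.90), *Ip6k1* and *Pgap3*, and *Erbb3* to *Gm12352* (0.90), *Hbp1* and *Ctdsp2*. These values describe likeness across libraries only.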

How the data were processed

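RNA from the scraped colon epithelium of 30 mice in 6 groups of 5 was sequenced from stranded poly(A) libraries. The gene counts are the authors' featureCounts values, raw whole numbers from reads aligned with STAR to GRCm38 (mm10), on 46078 genes; whether counting used strand is not given in the sources used here. StringTie gave the deposited FPKM values of each library, fragments per kilobase scaled to library size. The deposited TPM values come from the same StringTie files and sum to the same total in each library. Per the labels, bcl2fastq 2.20.0.422 and Trim Galore came first. Duplicate reads were not stated to be removed, so the floor of 3 counts covers counting error only, whereas standard errors come from the fit over mice. The rule for the members uses gene names alone, but members and lists were proposed with earlier results of these data known.

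From the counts, edgeR 4.0.16 (R 4.3.3) kept 16261 genes with filterByExpr, scaled by TMM (factors 0.832 to 1.10) and fitted its quasi-likelihood model over all libraries, 1 coefficient for each group (common biological coefficient of variation 0.319). Sexes were pooled as the mean of the male and female contrasts. P-values were adjusted by Benjamini-Hochberg over all tested genes, in 12 comparisons, and log2 CPM used a prior count of 2. Calls needed an adjusted p under 0.05, a log2 fold change beyond 0.4 and a mean FPKM of at least 1. The study's methods name DESeq2; edgeR is used here and DESeq2 1.42.0 as an alternative. TPM were read within libraries only, since relative to CPM their scale ran from 0.323 to 1.46 of its median across libraries, with *mt-Nd4l*, *Gm28439* and *mt-Atp8* the 3 highest genes by TPM in all 30. limma 3.58.1 on log2(TPM + 0.1) served as an alternative. The test was checked on simulated counts. The 60 pairs of libraries within groups had a chi-square per degree of freedom of 14.9 to 326, and none was a copy of another. Alternatives were other normalization, filters and thresholds, the replicate number as a block, marker scores as covariates, and leaving out each library. The squamous and smooth muscle covariates, the fit without 2 libraries and the TPM fit were added after seeing the data. Named genes were all members, the 3 most similar genes of each, and up to 3 called genes of each pathway list with the largest change; *Adam17*, *Nrg4* and *Ccnd1* were named after their values were seen.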

Additional observations from a re-analysis of the deposited data

Results flagged for a closer look

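Of the 60 sets of 5 libraries (10 members in 6 groups), 3 held a library with a gap to its nearest neighbour of more than 0.71 of the range of the group. Chance flags about 1 in 20 groups. *Areg* in the vehicle male 4 had a log2 CPM of 4.83 against a group median of 3.78, with 820 counts against a median of 360. *Tgfa* in the 15-week male 1 had a log2 CPM of 5.81 against a median of 5.42. *Nrg1* in the vehicle male 1, the library with high smooth muscle and squamous markers, had a log2 CPM of 1.18 against a median of -0.48, with 67 counts against 15. Without the vehicle male 4 the log2 fold change of *Areg* was 1.18 at 9 weeks with the sexes pooled and 1.55 in males.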

How the results depend on the processing

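*Areg* was called at 9 weeks under all 13 alternatives with the sexes pooled (0.95 to 1.37) and at 15 weeks under 12 of 13, the exception being limma on TPM (0.57, adjusted p = 0.267). On the TPM scale the median of all genes itself moved to 0.29 at 9 weeks, -0.30 at 15 weeks and -0.60 for 15 against 9 weeks, the share of upward calls among all called genes went from 66.5% to 97.4%, from 47.0% to 27.9% and from 18.0% to 0.144%, and relative to the moved median *Areg* had 1.08 and 0.87 at 9 and 15 weeks and *Hbegf* 0.63 at 15 weeks.

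The count of members called at 9 weeks (2) became 1 with the mesenchyme covariate and 1 on TPM, and 3 in 5 settings: with *Egfr* added without the fold change threshold, with the Hox covariate, without the 2 libraries that stood apart and with the compared groups only, and with *Epgn* added without the FPKM minimum. At 15 weeks (2) it became 1 with the posterior Hox covariate, 1 with the compared groups only and 0 on TPM. For 15 against 9 weeks (0) it became 1 without the FPKM minimum (*Nrg1*), 1 without the fold change threshold (*Egfr*), 1 without the 2 libraries that stood apart (*Btc*), 1 with DESeq2 (*Btc*) and 4 on TPM, where 8336 of all 16261 genes were called. In males at 9 weeks (3) *Hbegf* was lost with the Hox covariate and with the compared groups only, and the count became 0 on TPM. In males at 15 weeks (2) it became 1 with a mesenchyme or Hox covariate (*Hbegf* lost in each) and 0 on TPM or with the compared groups only. In females at 9 weeks (0) it became 1 with the Hox covariate, the compared groups only or DESeq2, and 2 without the 2 libraries. Leaving out 1 library gave 1 to 4 members at 9 weeks (4 without the vehicle male 4 or the 9-week female 5), 0 to 1 for 15 against 9 weeks, 0 to 2 in females at 9 weeks, 1 to 2 in males at 15 weeks and 0 to 1 between the sexes in vehicle. Pathway genes called at 9 weeks (10) became 5 on TPM. At 15 weeks (5) they became 12 without the fold change threshold, 1 with the Hox covariate and 0 on TPM, and 3 (without the vehicle female 1) to 9 (without the vehicle male 4) with 1 library left out. For 15 against 9 weeks (2) they became 1 without the count filter, 1 with the compared groups only, 0 with the mesenchyme, Hox or smooth muscle covariate, 4 without the 2 libraries, 37 on TPM and 0 (without the 9-week female 4) to 5 (without the 9-week female 5) with 1 library left out. Over all genes the calls of that comparison (378) became 0, 31 and 11 with those covariates, 1310 without the 2 libraries and 8336 on TPM.

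Uncalled fold changes that turned sign on TPM were, at 9 weeks, *Erbb2* (0.048) and *Erbb3* (0.10) and, in females, *Hbegf* (0.29); at 15 weeks *Ereg* (-0.079), *Tgfa* (-0.17), *Btc* (-0.26), *Egfr* (-0.28 pooled and -0.28 in males); and for 15 against 9 weeks *Hbegf* (-0.39), *Tgfa* (-0.64), *Erbb2* (-0.46) and *Erbb3* (-0.58). Relative to the moved median of all genes each of these had its first sign again (from -0.24 for *Erbb2* and -0.19 for *Erbb3* at 9 weeks to 0.22 for *Egfr* in males at 15 weeks and for *Hbegf* for 15 against 9 weeks), except *Tgfa* for 15 against 9 weeks (-0.034 against 0.0070). With covariates, *Ereg* at 15 weeks became -0.29 (Hox), *Btc* in males at 15 weeks 0.036 (Hox) and 0.0014 (smooth muscle), and for 15 against 9 weeks *Areg* became 0.031 (mesenchyme) and *Tgfa* -0.084 (mesenchyme) and -0.058 (Hox). Leaving out 1 library turned *Btc* (-0.050 to 0.16) and *Egfr* (-0.015 to 0.11) at 15 weeks, *Tgfa* for 15 against 9 weeks (-0.076 to 0.063) and *Hbegf* in females at 9 weeks (-0.21 to 0.056). For the covariates and the libraries left out the causes were not tested.

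Replicate numbers did not pair the libraries: 12 of 75 same-numbered pairs had a correlation of deviations over 0.1, with a median of -0.0262, and 4 libraries matched their own number best. With the replicate number as a block the members called stayed at 2 and 2 against vehicle, and the pathway genes for 15 against 9 weeks went from 2 to 1. Counts of 0 to 22 limit *Epgn*, and counts of 0 to 81 limit *Nrg1*.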

Other observations

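The row of ligand genes on chromosome 5 holds 7 annotated genes, of which 5 were tested. Besides the 4 ligands, the tested gene was RP23-258C6.2 (ENSMUSG00000107198, chr5:91257571-91283421 on the minus strand of GRCm38), which lies between *Areg* and *Btc* and was singled out after its values were seen. It had at most 26 counts in any library, with a log2 fold change of 1.80 at 9 weeks (edgeR adjusted p = 0.00677) and 1.35 at 15 weeks (adjusted p = 0.0436) against vehicle. The distance between neighbouring ligand genes was 39.4 kb from *Epgn* to *Ereg*, 46.0 kb from *Ereg* to *Areg* and 209 kb from *Areg* to *Btc*.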
